A study of Gallus gallus with 12 samples.

Results

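Skin of the chicken hindlimb was compared between 2 sites of the same age: the tarsometatarsus, the lower leg, which forms scales, and the thigh, which forms feathers. Both groups came from untreated White Leghorn embryos at embryonic day 9 (E9, Hamburger and Hamilton stage 35). Libraries were chosen by their labels alone, 2 of tarsometatarsal skin labelled as scale and 2 of thigh skin labelled as feather, which is 4 of the 12 libraries of the study. The other 8 libraries, from the same breed and also untreated, came from dorsal skin at E7 and E9, wing skin at E9 and tarsometatarsal skin at E11, 2 per group. They entered the fit to estimate the spread. Titles call every sample dermis and tissue labels call it skin, so how much epidermis each sample held is not given. Scale-forming skin lies distal and feather-forming skin proximal in the leg, so the kind of appendage and the position along the limb cannot be told apart. Nothing says that the libraries of a group came from separate embryos. The p-values then measure only the spread between libraries, pooled over the 6 groups, which may be technical.

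Limb skin carries positional information laid down while the limb bud grows out. Proximal limb mesenchyme is marked by MEIS transcription factors, which retinoic acid maintains, and distal mesenchyme by the 5′ genes of the HOXD cluster, the most posterior of the HOX genes. TBX4 and PITX1 are transcription factors that distinguish hindlimb from forelimb, where TBX5 is active. Feather buds and scales both begin as exchanges of WNT, BMP, FGF, hedgehog, NOTCH and EDA signals between epidermis and dermis. Feather buds start from a cell-rich placode over a dermal condensation, whereas the large scales of the tarsometatarsus begin later and more broadly.

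The 4 libraries held 14038198 and 17014698 reads in scale skin and 16087967 and 17359781 in thigh skin. Values are the authors' CPM, read counts scaled to an effective library size, and 1 read was worth 0.0584 to 0.0697 CPM in these libraries. Dermal and epidermal genes were present in all 4. The dermal fibroblast receptor PDGFRA stood at 1111 and 1129.9 CPM in scale and 1669.8 and 2092 in thigh, and the basal keratinocyte collagen COL17A1 at 43.8 and 105 in scale and 30.3 and 15.1 in thigh. In each pair of values replicate 1 comes first, and where groups are not named again the scale values stand before the thigh values. Thigh replicate 2 stood apart from the other 11 libraries. Its 12 mitochondrial rows made up 12.9% of the summed CPM, against 4.75% in thigh replicate 1, 4.24% and 4.46% in scale skin and 3.24% to 4.71% in the other groups. It was the highest of the 12 libraries in 2721 rows and the lowest in 3021, against 343 to 1369 and 294 to 1234 rows for the others. In 31 rows it lay over 2-fold above every other library, and in 92 rows over 2-fold below. The Spearman correlation across rows between the thigh replicates was 0.970, and that between the scale replicates 0.988. The median absolute log2 difference between replicates was 0.367 in thigh skin, 0.208 in scale skin and 0.106 to 0.232 in the other groups. Standard errors and p-values below pool the spread of all groups, so they may be too small for thigh skin. The total count of calls and the counts for gene lists below are therefore also given without thigh replicate 2. That leaves thigh skin with 1 library, whose spread is then assumed to be that of the other groups.

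**Figure D1:**
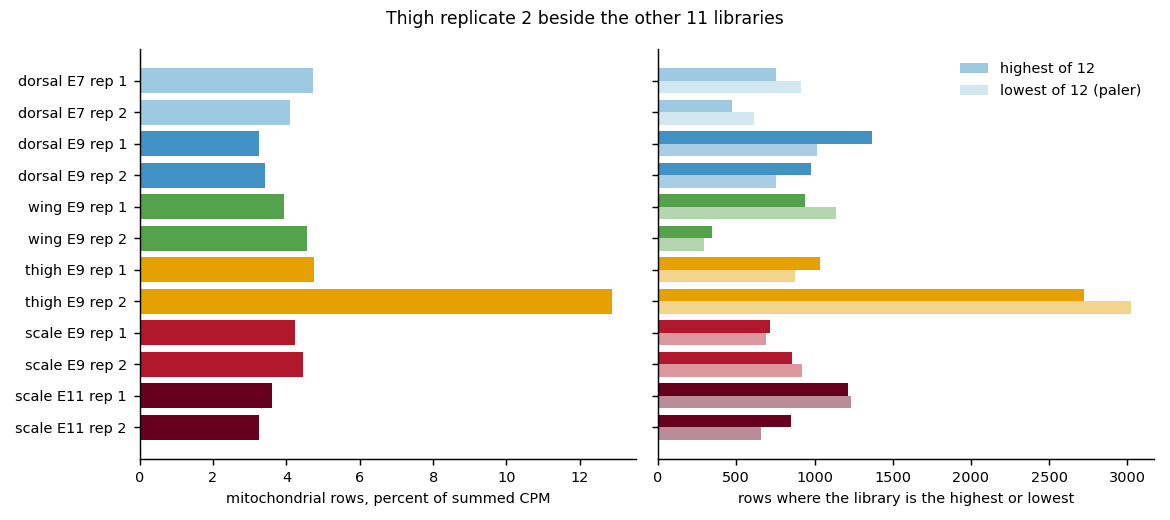
Left, the share of summed CPM in mitochondrial rows in each of the 12 libraries. Right, the number of tested rows in which each library was the highest (full colour) or the lowest (paler) of the 12. Thigh replicate 2 had 12.9% and 4.75% was the next highest, and it was the extreme library in 2721 and 3021 rows.

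Of 12277 transcript rows tested, 2995 differed between scale and thigh skin at an adjusted p under 0.05 (limma on log2(CPM + 1), Benjamini-Hochberg), which is 24.4% of the rows. Of these, 1438 (11.7% of rows) were higher and 1557 (12.7%) lower in scale than in thigh skin. At least 2-fold differences were held by 571 and 672 of these. The libraries of the 2 groups did not overlap in any called row, against 55.5% of all rows without overlap. Without thigh replicate 2 the test called 2145 rows (17.5%), of which 1731 were called in the same direction as before, 57.8% of the first set. Without thigh replicate 1 it called 5541 rows, without scale replicate 1 2012 and without scale replicate 2 1382. A fit of the 4 libraries alone called 1275, and a fit with library weights 770. No called row changed sign without either thigh library, but the lack of overlap between groups fixed that in advance. Thigh replicate 2 lay farther from scale skin than replicate 1 in 72.8% of the called rows and in 66.9% of all rows. When CPM was rescaled without the mitochondrial rows, 59.6% of 2758 calls were higher in scale skin, against 48.0% in the main fit. A set of 679 rows, 5.53% of those tested, was called in the main fit and in all 18 alternative fits in which it could be tested, 312 of them higher and 367 lower. The median log2 fold change of all rows was -0.00237. In the lists of genes below, pairs of counts give the number higher and then lower in scale skin. Every such pair from the main fit is to be set beside the 11.7% and 12.7% of all rows called in each direction. The lists were chosen with earlier results of these data known, so this comparison is not a test of a list. The list counts are given again without thigh replicate 2, and without any other of the 4 libraries that moves a count by over 1.5 times. Genes named as higher or lower were called without thigh replicate 2 unless the text says otherwise.

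The largest increases in scale skin included transcription factors and secreted proteins. PRDM6 (ENSGALT00000008588.4), a transcriptional regulator known from smooth muscle, stood at 55.05 and 55.6 CPM in the scale libraries and 1.82 and 0.49 in the thigh libraries (log2 fold change 4.78 ± 0.33, adjusted p 1.34e-06). IGSF10, an immunoglobulin superfamily protein, stood at 119.7 and 106 in scale and 4.71 and 3.42 in thigh (4.50 ± 0.21, adjusted p 8.81e-08). NPTX2, a secreted pentraxin of synapses, stood at 247 and 262 in scale and 12.4 and 10.7 in thigh (4.35 ± 0.23, adjusted p 1.61e-07). The rule that picked these genes required no overlap between the groups, so their lack of overlap was fixed in advance. The homeobox gene Six2 stood at 28.5 and 31.8 in scale against 1.51 and 0.70 in thigh (3.91 ± 0.22, adjusted p 2.84e-07). SFRP4, a secreted WNT antagonist, stood at 39.8 and 43.5 against 3.89 and 2.72 (3.32 ± 0.21, adjusted p 6.01e-07). Others of the 15 largest increases were HOXD12, SALL1 and LHX2, described with the position genes, and ADARB2, an RNA-binding protein of the adenosine deaminase family (3.42), the secreted angiopoietin-like ANGPTL5 (3.39), TMEM132E, a membrane protein (3.26), the phospholipase PLCB1 (3.16) and C8orf34 (3.03). TMEM132E alone of these exceeded 100 CPM, at 115 and 124 in scale against 17.1 and 7.81 in thigh.

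The largest difference in the other direction among genes with a symbol was that of SIM1 (ENSGALT00000024939.4), a transcription factor of the bHLH-PAS family, at 8.31 and 4.55 CPM in scale and 143 and 139 in thigh (-4.30 ± 0.22, adjusted p 1.61e-07). DCLK1, a microtubule-associated kinase, stood at 10.2 and 4.96 in scale and 140.1 and 153 in thigh (-4.17 ± 0.29, adjusted p 1.54e-06). The growth factor IGF2 stood at 3.46 and 3.74 in scale and 72.3 and 61.1 in thigh (-3.88 ± 0.18, adjusted p 8.81e-08). PAPPA2, a protease that releases insulin-like growth factors from their binding proteins, stood at 5.75 and 3.56 in scale and 122 and 38.8 in thigh (-3.66 ± 0.41, adjusted p 5.39e-05). The thigh libraries of PAPPA2 differed 3-fold from each other, and the rule for these genes required both to lie above the scale libraries. RELN, a secreted guidance protein of neurons and lymphatic vessels, stood at 9.83 and 4.96 in scale and 127 and 68.3 in thigh (-3.55 ± 0.31, adjusted p 7.36e-06). The remaining ones of the 15 were the phosphodiesterases PDE1A (-3.89) and ENPP3 (-4.09), the glycosyltransferase TMTC1 (-3.68), the calcium-binding S100A4 (-3.52), ZIC1 (-3.46), the vasopressin receptor AVPR2 (-3.44), the calcium channel subunit CACNA2D3 (-3.33), the nuclear receptor NR4A2 (-3.30), the secreted NELL1 (-3.22) and SERPIND1, the thrombin inhibitor heparin cofactor II (-3.22). All 30 of these genes were called in every one of the 18 alternative fits. A row with no symbol (ENSGALT00000032501.3) had a larger decrease than SIM1.

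**Figure D2:**
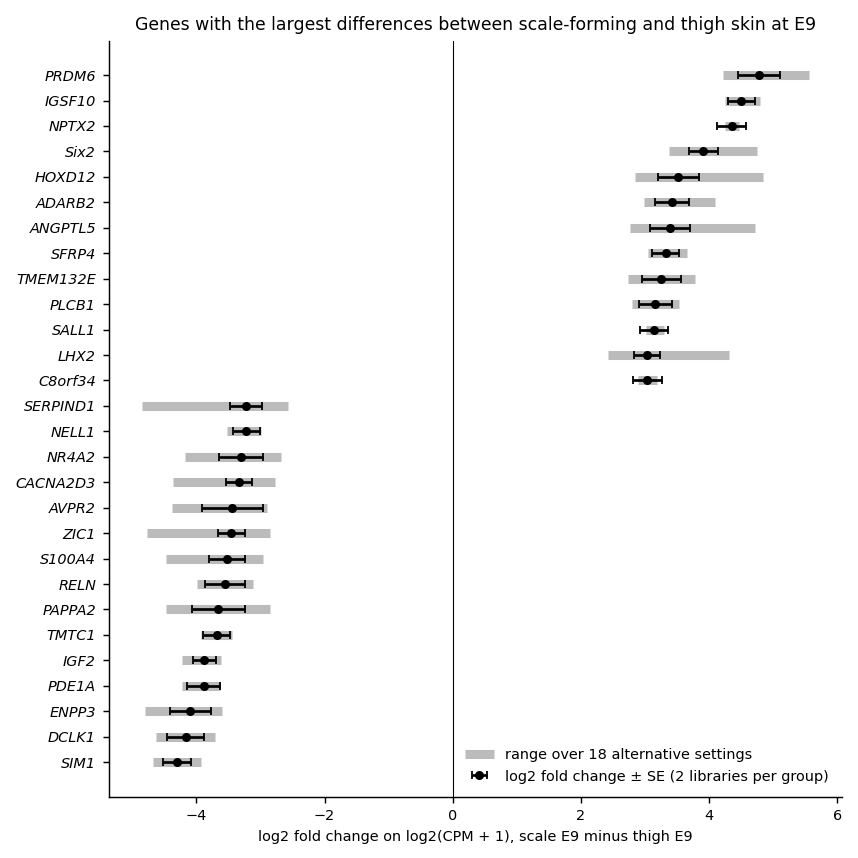
Genes with the largest increases (13 of the 15) and the 15 largest decreases in scale E9 relative to thigh E9 skin. Points are log2 fold changes on log2(CPM + 1) with their standard error, and grey bars span the values under 18 alternative settings; every bar stays on its side of 0, and the widest ones belong to genes near 0 CPM in 1 group, such as SERPIND1.

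Both hindlimb genes were higher distally. TBX4 stood at 186 and 149 CPM in scale and 45.7 and 25.3 in thigh (2.26 ± 0.26, adjusted p 6.07e-05), and PITX1 at 11.98 and 13.9 in scale and 2.2 and 2.23 in thigh (2.12 ± 0.23, adjusted p 3.98e-05). Wing skin, a forelimb site, had TBX4 at 2.57 and 2.85 and PITX1 at 0.12 and 0, so that thigh lay between wing and scale skin for both genes. TBX5 stood at 0.14 and 0.06 in scale, 0.57 and 0.49 in thigh and 27.97 and 39.05 in wing skin, and did not pass the test between scale and thigh (-0.48 ± 0.22, adjusted p 0.13). ISL1, which acts upstream of hindlimb outgrowth in the mouse, was low throughout, at 1.11 and 0.82 in scale and 1.7 and 1.32 in thigh (-0.35 ± 0.21, adjusted p 0.242).

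HOXD genes differed by their place in the cluster. The last genes of the HOXD cluster were all higher in scale skin. HOXD12 stood at 17.9 and 13.9 CPM in scale and 1 and 0.07 in thigh (3.52 ± 0.32, adjusted p 9.41e-06), HOXD11 at 6.93 and 5.37 against 0.50 and 0.21 (2.40 ± 0.23, adjusted p 1.46e-05), and HOXD13 at 5.4 and 6.19 against 0 and 0.07 (2.71 ± 0.22, adjusted p 4.71e-06). HOXD13 rested on 184 reads in scale and 1 read in thigh, a ratio of 176 with a 95% interval of 31.3 to 7005 for counting error only. EVX2, the homeobox gene next to HOXD13, had 27 reads in scale and 0 in thigh, at least 8.63-fold higher when 3 reads are allowed over both thigh libraries. EVX2 was called (0.89 ± 0.22, adjusted p 0.0117), and narrowly so without thigh replicate 2 (adjusted p 0.0483). The neighbouring genes toward the other end of the cluster were lower in scale skin. HOXD10 stood at 6.02 and 4.03 in scale and 13.2 and 17.5 in thigh (-1.45 ± 0.26, adjusted p 0.00168), HOXD9 at 5.12 and 3.62 against 10.99 and 10.5 (-1.14 ± 0.21, adjusted p 0.0019), and HOXD8 at 33.1 and 28.7 against 77.8 and 81.7 (-1.34 ± 0.16, adjusted p 8.06e-05). The sign of the difference thus turned between HOXD10 and HOXD11. In wing skin the 3 last genes were higher than in scale skin, with HOXD12 at 149 and 132, HOXD11 at 73.3 and 69.3 and HOXD13 at 28.6 and 25.7 (scale minus wing -3.07 ± 0.32, adjusted p 4.56e-05, for HOXD12, -3.35 ± 0.23, adjusted p 1.59e-06, for HOXD11 and -2.05 ± 0.22, adjusted p 6.92e-05, for HOXD13). That comparison shares its scale libraries with the one above and called 8.89% of rows.

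Of 10 measured posterior HOX genes, those of the last paralog groups, 3 were higher and 4 lower in scale skin (median log2 fold change -0.36), and the counts were 3 and 4 without thigh replicate 2. Of 10 measured anterior ones, 0 were higher and 5 lower (median log2 fold change -0.71), with HOXD8 among them. HOXC10, a gene of hindlimb and lumbar levels, stood at 63.3 and 57.4 CPM in scale and 130.2 and 209.6 in thigh (-1.44 ± 0.22, adjusted p 0.000582), and HOXC11 at 21.6 and 15.5 against 50.7 and 52.9 (-1.45 ± 0.27, adjusted p 0.00193). In wing skin HOXC10 stood at 1.49 and 1.28, and in dorsal skin at E9 it stood at 264 and 290.1. HOXB3 stood at 8.79 and 4.84 in scale and 30.7 and 17.4 in thigh (-1.67 ± 0.27, adjusted p 0.000904). HOXD4 (-0.71), Hoxb-7 (-0.77) and HOXB4 (-0.89) were called lower in the main fit and not without thigh replicate 2 (adjusted p 0.0597, 0.13 and 0.0595). The anterior counts were 0 and 2 without thigh replicate 2 and 0 and 2 without scale replicate 2. HOXB9, HOXC9 and HOXC12 among the posterior genes, and HOXB5, HOXB6, HOXC6 and HOXD3 among the anterior ones, did not pass the test (0.31, -0.67, -0.06, -0.71, -0.31, -0.07 and -0.57).

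**Figure D3:**
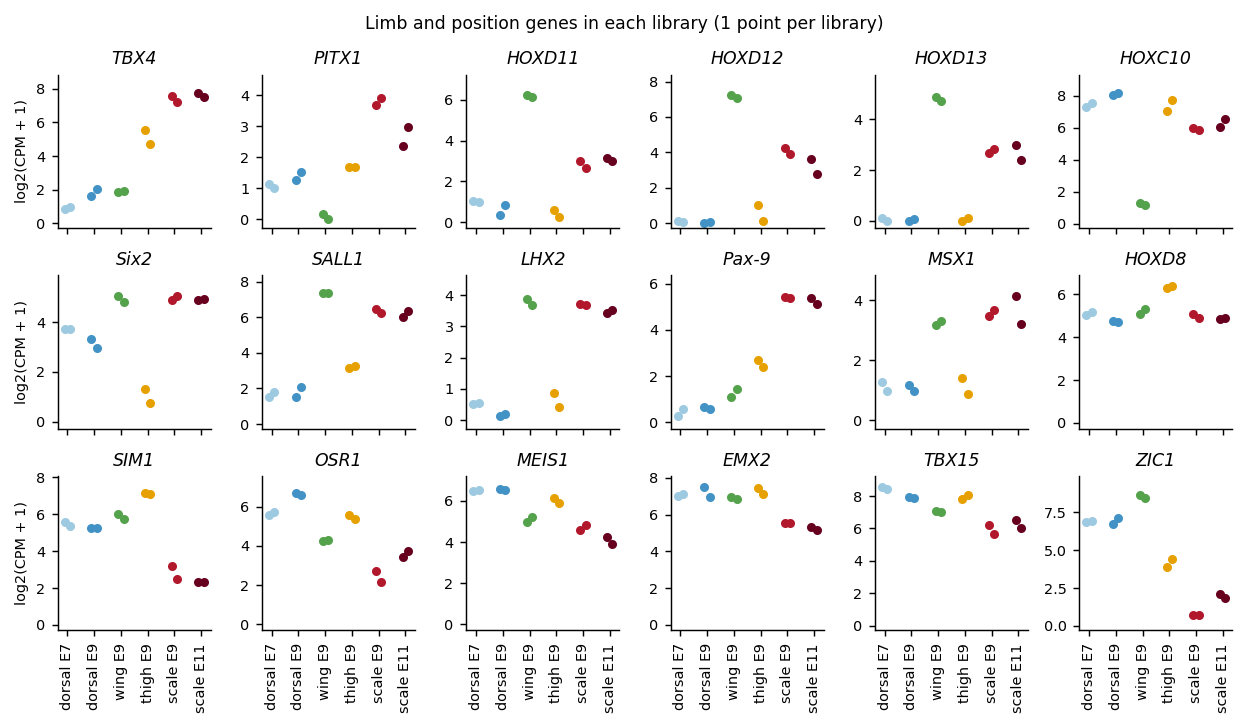
Levels of 18 limb and position genes as log2(CPM + 1), 1 point per library and 2 libraries per group, with groups in colour. HOXD11, HOXD12, HOXD13, SALL1, LHX2 and MSX1 were near their lowest in thigh and dorsal skin and higher in wing and scale skin, while TBX4, PITX1 and Pax-9 were highest in scale skin.

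A list of 53 measured regulators of position along the limb held 21 genes higher and 13 lower in scale skin, against 11.7% and 12.7% of all rows (median log2 fold change 0.19). Its members were chosen with earlier results of these data known and include SIM1, Six2, SALL1 and LHX2 from the largest differences above. The shares therefore do not test the list. The counts were 18 and 12 without thigh replicate 2, and 12 and 8 of these genes were called in every alternative fit. Higher genes included the homeobox and zinc-finger factors of the distal limb bud. SALL1 stood at 87.1 and 73.8 CPM in scale and 7.97 and 8.44 in thigh (3.14 ± 0.22, adjusted p 1.34e-06). LHX2, which the distal mesenchyme needs for limb outgrowth in the chick, stood at 11.98 and 11.7 against 0.82 and 0.35 (3.04 ± 0.21, adjusted p 1.26e-06), and its relative LHX9 at 29.2 and 37.2 against 8.35 and 12.6 (1.59 ± 0.47, adjusted p 0.0273). LHX9 was narrowly called without thigh replicate 2 (adjusted p 0.0476). Pax-9, a paired-box factor, stood at 42.2 and 40.6 against 5.46 and 4.25 (2.86 ± 0.22, adjusted p 3.48e-06). MSX1, a target of BMP signals, stood at 10.2 and 11.6 against 1.63 and 0.84 (2.43 ± 0.29, adjusted p 7.96e-05). LMX1B, which specifies dorsal limb, stood at 35.9 and 31.1 against 14.1 and 8.09 (1.56 ± 0.27, adjusted p 0.00146), and the aristaless-related Alx-4 at 235 and 273 against 58.6 and 48.6 (2.22 ± 0.19, adjusted p 5.49e-06). DACH1 (2.46), TFAP2B (2.44), NR2F1 (2.17), SHOX (2.03), Dach2 (1.67), PAX1 (1.56), BARX2B (1.45) and IRX1 (1.23) were each higher by over 1 log2 unit. NR2F2 (0.75), irx2 (0.74) and PRRX2 (0.58) were higher by smaller amounts, and none of these 3 was called without thigh replicate 2 (adjusted p 0.188, 0.263 and 0.14).

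Scale skin did not hold the highest levels of all these genes in the series. SALL1 stood at 163 and 162 CPM in wing skin, above scale skin (scale minus wing -1.01 ± 0.22, adjusted p 0.00974). Six2 stood at 32.1 and 26.7 in wing skin (scale minus wing 0.04 ± 0.22, adjusted p 0.953) and LHX2 at 13.7 and 11.97 (-0.10 ± 0.21, adjusted p 0.835), and neither differed from scale skin past the threshold. Pax-9 stood at 1.14 and 1.76 in wing skin, far below scale skin (scale minus wing 4.13 ± 0.22, adjusted p 1.47e-07).

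Genes of the list that were lower in scale skin included factors of the proximal limb and body wall. OSR1, an odd-skipped factor of loose connective tissue (row ENSGALT00000045546.1, with a second row of the same symbol also lower), stood at 5.61 and 3.5 CPM in scale and 46.4 and 40.5 in thigh (-3.02 ± 0.21, adjusted p 1.32e-06). TBX15 stood at 72.8 and 49.3 against 228 and 267 (-2.03 ± 0.20, adjusted p 2.21e-05), and EMX2, a homeobox factor of the girdle region, at 45.8 and 45.2 against 173 and 137 (-1.73 ± 0.19, adjusted p 3.52e-05). MEIS1, a mark of proximal identity, stood at 22.99 and 27.4 against 70.1 and 58.02 (-1.31 ± 0.18, adjusted p 0.000201). The scale and thigh libraries did not overlap for any of these 4 genes, which held for every called row and for 55.5% of all rows. EBF1 (-1.85), EBF2 (-1.86) and EBF3 (-1.11), factors of mesenchymal and adipogenic cells, were lower together. PRRX1 (-0.86), TBX18 (-0.95), ALX1 (-0.97) and EN1 (-0.61) were lower by less than 1 log2 unit, and of these TBX18 alone was called without thigh replicate 2 (adjusted p 8.76e-05). The 19 genes of the list that did not pass the test lay between -0.66 for LIX1 and 0.59 for TBX3. They were CYP26B1, which degrades retinoic acid, the BMP antagonist GREM1, and DLX3, DLX5, DLX6, GSC, IRX6, MSX2, OSR2, PBX1A, PBX3, SHOX2, TBX2, TCF21, TFAP2C, TWIST1 and cdermo-1.

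Of 4 other regulators of interest that were measured, 3 differed, and SOX2 of the same list was not measured. ZIC1, a zinc-finger factor of the dorsal neural tube and somites, stood at 0.62 and 0.64 CPM in scale and 14.1 and 20.3 in thigh (-3.46 ± 0.21, adjusted p 5.37e-07), and thigh itself was low beside wing skin at 395 and 344 and dorsal skin at 105 and 139.9. SOX18, a factor of endothelium and, in the mouse, of hair follicles, stood at 19.1 and 10.3 in scale and 49.7 and 47.1 in thigh (-1.71 ± 0.22, adjusted p 0.00015). SPRY2, a feedback inhibitor of FGF signals, stood at 90.2 and 89.4 in scale and 194 and 175 in thigh (-1.03 ± 0.14, adjusted p 0.000243), with close replicates in both groups. GRHL1, an epidermal factor, stood at 11.2 and 16.5 against 12.7 and 10.3 and did not pass the test (0.23 ± 0.29, adjusted p 0.584). ZIC1, SOX18 and SPRY2 were called in all 18 alternative fits.

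Of 31 measured genes of feather bud and dermal condensation, 6 were higher and 10 lower in scale skin (median log2 fold change -0.16), and the counts were 3 and 11 without thigh replicate 2. In the main fit 19.4% and 32.3% of the list were called, beside 11.7% and 12.7% of all rows. The remaining 15 were not called. They included CTNNB1 (-0.31 without thigh replicate 2 and -0.57 without thigh replicate 1), BMP4 (0.38 and 0.48), SHH (-0.17 and 0.20) and FGF20 (0.05 and -0.13). SOX18 was among the lower genes of the list. TRPS1, a GATA-type zinc-finger repressor of skin appendages and skeleton, stood at 6.58 and 4.44 CPM in scale and 29.4 and 49.1 in thigh (-2.60 ± 0.31, adjusted p 7.59e-05). FST, an inhibitor of activin and BMP, stood at 9.07 and 15.5 against 60.9 and 76.1 (-2.42 ± 0.23, adjusted p 1.46e-05). BMP7 stood at 149 and 121 against 396 and 319 (-1.40 ± 0.24, adjusted p 0.00133), and FGF10, a dermal signal to the epidermis, at 22.4 and 15.3 against 37.98 and 52.6 (-1.23 ± 0.26, adjusted p 0.0046). PTHrP (-1.67), the forkhead factor FOXD1 (-1.20), FGF3 (-1.15) and the hedgehog receptor PTCH1 (-0.90) were lower too. Lef-1, a nuclear mediator of WNT signals, was lower by less, at 261 and 295 against 478 and 459 (-0.75 ± 0.16, adjusted p 0.00421). Higher ones were BMP2, at 35.5 and 30.9 in scale and 13.8 and 8.79 in thigh (1.503 ± 0.23, adjusted p 0.000483), the adhesion molecule NCAM1 (1.20) and DKK3 (0.99). TNC (1.12), FGFR1 (0.90) and BOC (0.67) were higher in the main fit and lost the call without thigh replicate 2 (adjusted p 0.0732, 0.184 and 0.138).

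Genes of the WNT pathway were called in both directions. Of 55 measured, 19 were higher and 8 lower in scale skin (median log2 fold change 0.27). These were 34.5% and 14.5% of the list, beside 11.7% and 12.7% of all rows. The balance turned without thigh replicate 2, and the counts were 9 and 12 without thigh replicate 2, 17 and 5 without scale replicate 1 and 8 and 5 without scale replicate 2. Over all rows, too, the balance moved toward lower calls without thigh replicate 2. Measured ligands were called on both sides. WNT5A stood at 65.1 and 71.3 CPM in scale and 258 and 229 in thigh (-1.82 ± 0.16, adjusted p 9.26e-06), and WNT11 at 75.1 and 67.7 against 221 and 261 (-1.74 ± 0.19, adjusted p 4.83e-05). WNT5B (-1.11) and WNT16 (-1.71) were lower as well. WNT4 was higher (0.85 ± 0.28, adjusted p 0.0402), and not called without thigh replicate 2 (adjusted p 0.246). Receptors and antagonists lay on both sides. The receptor FZD3 gave -1.19 without thigh replicate 2 and -0.41 without thigh replicate 1, and the antagonist FRZB gave -0.81 and -0.31. FZD7 stood at 129.98 and 135 in scale and 48.5 and 27.3 in thigh (1.84 ± 0.24, adjusted p 0.000174), and 1.43 without thigh replicate 2. DACT2, an intracellular modulator, stood at 139.8 and 122.9 against 34.1 and 45.8 (1.70 ± 0.23, adjusted p 0.000196). The ligands of the epidermis Wnt6 (2.20), Wnt10a (1.73) and Wnt3 (1.53) were higher, and their scale replicates differed from each other as the keratinocyte genes did, with Wnt6 at 9.97 and 20.9 in scale and 3.52 and 1.53 in thigh. Wnt10a and Wnt3 were not called without thigh replicate 2 (adjusted p 0.152 and 0.12). AXIN2, a feedback target of canonical signals, stood at 429 and 408 in scale and 283 and 163 in thigh (0.96 ± 0.21, adjusted p 0.00649), and gave 0.56 without that library. The receptor LGR5 stood at 119 and 123.5 against 93.2 and 32.1 (1.13 ± 0.35, adjusted p 0.0341), and gave 0.38 without it (adjusted p 0.236).

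Of 51 measured BMP and TGF-beta pathway genes, 7 were higher and 15 lower in scale skin (median log2 fold change -0.19). These were 13.7% and 29.4% of the list, beside 11.7% and 12.7% of all rows. The counts were 4 and 15 without thigh replicate 2, 14 and 16 without thigh replicate 1 and 4 and 6 without scale replicate 2. Extracellular inhibitors lay on both sides. FST, above, and BMPER, at 31.1 and 31.9 CPM in scale and 124 and 91.6 in thigh (-1.73 ± 0.17, adjusted p 1.64e-05), were lower, whereas NOG, which binds BMPs, was higher at 4.57 and 4.38 against 1.63 and 1.12 (1.21 ± 0.30, adjusted p 0.0125). NOG was not called without thigh replicate 2 (adjusted p 0.0732). The intracellular inhibitor SMAD6, itself a BMP target, stood at 38.2 and 48.1 in scale and 20.97 and 14.4 in thigh (1.26 ± 0.20, adjusted p 0.000748), and ID2, another target, at 532 and 595 against 290.1 and 362 (0.79 ± 0.16, adjusted p 0.00379). The receptors BMPR1A (-0.94) and BMPR-II (-0.88) and the signal transducers SMAD1 (-0.62) and SMAD5 (-0.69) were lower by less than 1 log2 unit, BMPR1A not without thigh replicate 2 (adjusted p 0.0517). BMP-10 had 72 reads in thigh and 0 in scale, at least 25.0-fold lower in scale when 3 reads are allowed over both scale libraries.

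The hedgehog receptor PTCH1, also a target of the pathway, was lower in scale skin. It stood at 95.4 and 78.4 CPM in scale and 168 and 156 in thigh (-0.90 ± 0.19, adjusted p 0.00432). SCUBE3 went the other way, at 43.9 and 27.7 against 7.53 and 3.97 (2.46 ± 0.27, adjusted p 4.03e-05). In all, 2 of 16 measured genes were higher and 6 lower (median log2 fold change -0.27), with 1 and 5 without thigh replicate 2, 4 and 3 without thigh replicate 1, 1 and 5 without scale replicate 1 and 1 and 0 without scale replicate 2. After rescaling without mitochondrial rows the counts were 2 and 3. The main fit called 12.5% and 37.5% of the hedgehog list, beside 11.7% and 12.7% of all rows. Of 22 measured NOTCH pathway genes, 0 were higher and 4 lower (median log2 fold change -0.13), with 0 and 6 without thigh replicate 2, 6 and 5 without thigh replicate 1 and 1 and 3 without scale replicate 2. The NOTCH shares in the main fit were 0% and 18.2%. The ligand DLL1 stood at 14.7 and 14.9 in scale and 64.2 and 58.7 in thigh (-1.98 ± 0.21, adjusted p 3.47e-05), and the ligand JAG1 at 34 and 24.7 against 78.4 and 65.97 (-1.28 ± 0.19, adjusted p 0.000443). The target HES5 (-1.84) and the DNA-binding mediator RBPJ (-1.07) were lower too, RBPJ not without thigh replicate 2 (adjusted p 0.0614).

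FGF pathway genes were called on both sides, 6 of 29 higher and 7 lower (median log2 fold change -0.09), with 4 and 9 without thigh replicate 2, 10 and 7 without thigh replicate 1, 3 and 7 without scale replicate 1 and 3 and 4 without scale replicate 2. The main fit called 20.7% and 24.1% of the FGF list, beside 11.7% and 12.7% of all rows. The ligands FGF18, at 1.94 and 1.05 CPM in scale and 9.48 and 11.9 in thigh (-2.24 ± 0.27, adjusted p 8.5e-05), and FGF7, at 21.9 and 15.7 against 36.1 and 55.6 (-1.23 ± 0.23, adjusted p 0.00246), were lower, like FGF10. The ligand Fgf9 was higher, at 8.17 and 12.1 against 2.89 and 2.65 (1.54 ± 0.24, adjusted p 0.000689), and so was the intracellular FGF12 (1.16). The receptor FGFR2, of epithelial and mesenchymal forms, stood at 396 and 435 against 275 and 219 (0.76 ± 0.18, adjusted p 0.00891). Of the 9 measured EDA pathway genes, NFKBIA, a target and inhibitor of NF-kappaB, was higher at 95.01 and 74.1 in scale and 18.02 and 9.62 in thigh (2.58 ± 0.25, adjusted p 1.46e-05), TNFRSF19 was higher (0.85) and EDA2R lower (-0.95). The counts of this list, 2 and 1 (median log2 fold change 0.33), became 2 and 1 without thigh replicate 2, 4 and 0 without thigh replicate 1 and 1 and 0 without scale replicate 2. The ligand EDA stood at 75.5 and 79.7 against 92.2 and 37.9 (0.38 ± 0.30, adjusted p 0.375, and -0.25 without thigh replicate 2), and its receptor Edar, of the placode, at 2.7 and 9.92 against 3.77 and 4.39 (0.33 ± 0.41, adjusted p 0.588). Neither of these passed the test, and the Edar values of the scale libraries lay on both sides of the thigh values.

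Of 15 measured genes that bind, make or read retinoids, 5 were higher and 2 lower in scale skin (median log2 fold change 0.20). These were 33.3% and 13.3% of the list, beside 11.7% and 12.7% of all rows. The counts were 4 and 2 without thigh replicate 2, 2 and 1 without scale replicate 1 and 3 and 1 without scale replicate 2. CRABP-I, an intracellular binding protein of retinoic acid, stood at 1126 and 1456 CPM in scale and 237 and 248 in thigh (2.40 ± 0.23, adjusted p 1.58e-05). CRABP2 stood at 235 and 212 against 64.9 and 31.2 (2.28 ± 0.33, adjusted p 0.000366). RDH10, which makes retinaldehyde, stood at 151 and 90.99 against 60.2 and 15.2 (1.91 ± 0.42, adjusted p 0.00646), and its value fell to 0.95 without thigh replicate 2 (adjusted p 0.0128). The retinol importer STRA6 was lower at 19.4 and 13.6 against 46.8 and 49.9 (-1.52 ± 0.29, adjusted p 0.00277). The synthesis enzyme ALDH1A2 was lower at 9.21 and 8 against 13.1 and 19.2 (-0.82 ± 0.23, adjusted p 0.0213), though not without thigh replicate 2 (adjusted p 0.124). Of 16 measured genes of the insulin-like growth factor pathway, 2 were higher and 4 lower (median log2 fold change -0.26), with 2 and 9 without thigh replicate 2 and 1 and 4 without scale replicate 2. The main fit called 12.5% and 25.0% of this list. IGF2 and PAPPA2, described above, led the lower ones, with the PAPPA inhibitors STC1 (-1.41) and STC2 (-1.64). The binding protein IGFBP2 was higher at 132 and 153 in scale and 82.3 and 59.4 in thigh (1.01 ± 0.22, adjusted p 0.00571).

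**Figure D4:**
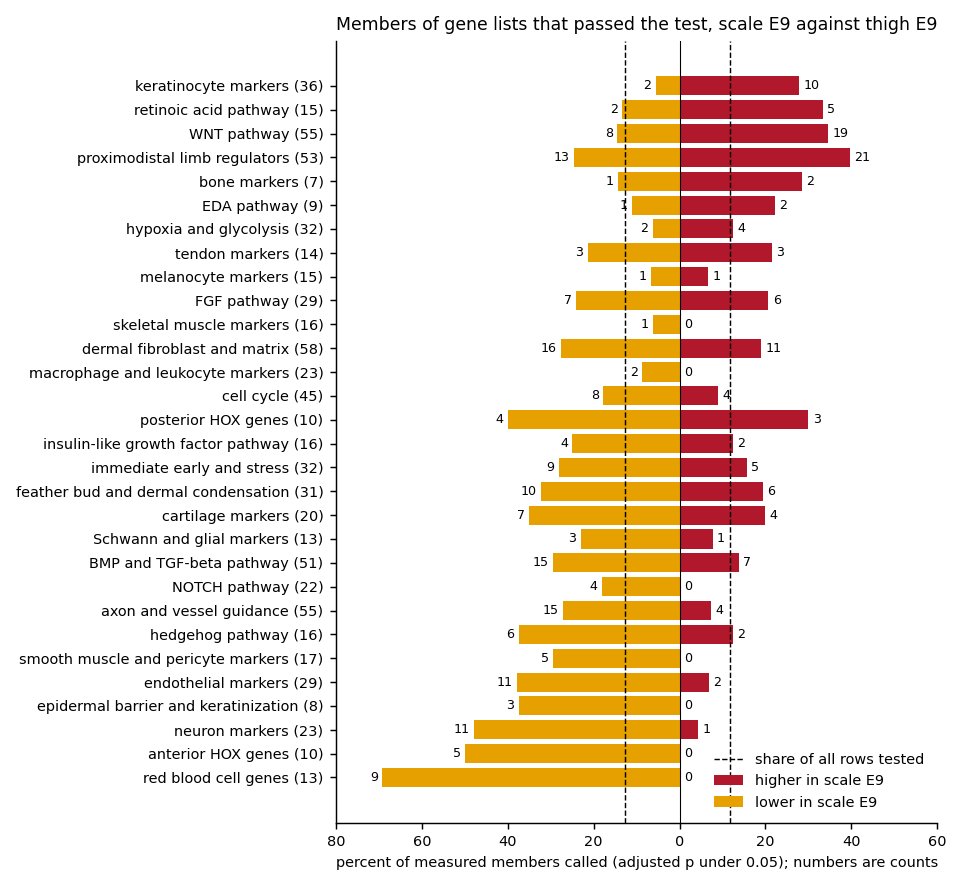
Percent of the measured members of each plotted gene list (number in brackets) that were called higher (red, right) or lower (yellow, left) in scale E9 than in thigh E9 skin. The mitochondrial, W-linked, limb identity and study regulator lists are not plotted. Numbers beside bars are counts and dashed lines mark the 11.7% and 12.7% of all rows called in each direction; of the plotted lists, red blood cell, anterior HOX and neuron lists reach farthest to the left and position genes of the limb farthest to the right.

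Of 55 measured guidance genes for axons and vessels, 4 were higher and 15 lower in scale skin (median log2 fold change -0.17). These were 7.27% and 27.3% of the list, beside 11.7% and 12.7% of all rows. The counts were 4 and 19 without thigh replicate 2, 9 and 13 without thigh replicate 1 and 5 and 9 without scale replicate 2. The secreted semaphorin SEMA3C stood at 69.8 and 91.3 CPM in scale and 403 and 449 in thigh (-2.40 ± 0.19, adjusted p 3.48e-06). The netrin receptor UNC5D stood at 1.8 and 1.63 against 15.8 and 17.99 (-2.72 ± 0.29, adjusted p 3.04e-05), and the SLIT receptor ROBO1 at 192 and 151 against 579.6 and 477 (-1.62 ± 0.21, adjusted p 0.000135). EPHA3 (-1.47), RGMA (-1.35), NTN3 (-1.56) and the plexin PLXNB2 (-1.27) were also lower. SLIT2, a ligand of ROBO1, went the other way, at 213 and 227 against 80.2 and 34.8 (2.04 ± 0.28, adjusted p 0.00025), as did Sema3F (1.40) and NTNG1 (1.86).

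Of 23 measured neuron markers, 1 was higher and 11 were lower (median log2 fold change -0.79), with 0 and 8 without thigh replicate 2 and 0 and 4 without scale replicate 2. DCX, a microtubule protein of young neurons, stood at 14.6 and 7.82 CPM in scale and 68.4 and 74.1 in thigh (-2.62 ± 0.32, adjusted p 9.75e-05), and the RNA-binding ELAVL4 at 4.64 and 4.79 against 17.01 and 23.1 (-1.87 ± 0.22, adjusted p 8.33e-05). The neuronal STMN2 was near 1 CPM or below in most libraries, at 0.21 and 0.35 against 1.26 and 2.51. TUBB3 went the other way, with 0.31 without thigh replicate 2 and 1.44 without thigh replicate 1. SNAP25 gave 0.29 and -0.04 in these fits. In the main fit 4.35% and 47.8% of the neuron list were called, beside 11.7% and 12.7% of all rows. The summed CPM of the 23 markers was 292 and 281 in scale and 391 and 449.8 in thigh. Of 13 Schwann cell and glial genes, 1 was higher and 3 lower (median log2 fold change 0.11), with 0 and 3 without thigh replicate 2, 2 and 3 without thigh replicate 1, 0 and 4 without scale replicate 1 and 0 and 2 without scale replicate 2. Lower genes included GAP43, a growth-associated protein of axons and glia, at 7.27 and 4.03 against 19.1 and 39.3 (-2.14 ± 0.39, adjusted p 0.00175). In bulk tissue fewer cells of a type and less RNA per cell cannot be told apart, here and for the cell type markers that follow.

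Keratinocyte markers were called higher more often than lower, and most were not called. Of 36 measured, 10 were higher and 2 lower in scale skin, against 11.7% and 12.7% of all rows (median log2 fold change 0.76). The remaining 24 were not called. The counts were 5 and 1 without thigh replicate 2, 13 and 1 without scale replicate 1 and 5 and 1 without scale replicate 2. PKP2, a plakophilin of desmosomes, stood at 22.6 and 24.4 CPM in scale and 2.57 and 3.28 in thigh (2.65 ± 0.23, adjusted p 6.32e-06). LAMA3, a laminin chain of the basement membrane, stood at 61.8 and 89.9 against 24.7 and 14.6 (1.92 ± 0.25, adjusted p 0.000148), and the kindlin FERMT1 at 13.3 and 20.2 against 5.78 and 4.04 (1.57 ± 0.24, adjusted p 0.000559). The scale replicates were unequal: 33 of the 36 markers were higher in scale replicate 2 than in replicate 1, with the cadherin CDH1 at 16.6 and 31.3 against 9.67 and 3.21 in thigh. CDH1 was called in the main fit (1.83 ± 0.53, adjusted p 0.0263) and not without thigh replicate 2 (adjusted p 0.202). The list summed to 845 and 1348 CPM in scale and 834 and 675 in thigh. How much the share of epidermis in each sample contributed was not tested. The keratin KRT14 had a negative log2 fold change, -0.87 without thigh replicate 2 and -1.10 without thigh replicate 1. So had KRT6A (-0.29 and -0.17), KRT20 (-0.35 and -0.44) and the integrin ITGA6 (-0.35 and -0.41). KLF5, a factor of proliferating epithelium, was lower, at 16.1 and 27.96 against 115 and 50.5 (-1.80 ± 0.34, adjusted p 0.00247). Genes of the epidermal barrier were at low levels, and 0 of 8 were higher and 3 lower (median log2 fold change -0.63), with 0 and 1 without thigh replicate 2. CRNN had 126 reads in thigh and 1 in scale, a ratio of 131 with a 95% counting interval of 23.2 to 5232. CSTA (-1.80) and SPINK5, at 0 and 0 against 1.13 and 1.53, lost the call without thigh replicate 2 (adjusted p 0.0594 and 0.0702).

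Dermal matrix genes were called in both directions, 11 of 58 higher and 16 lower (median log2 fold change -0.06), with 9 and 19 without thigh replicate 2, 19 and 16 without thigh replicate 1 and 7 and 9 without scale replicate 2. The main fit called 19.0% and 27.6% of the matrix list, beside 11.7% and 12.7% of all rows. Lower ones included small matrix proteins of loose connective tissue. MFAP5, a microfibril protein, stood at 47.2 and 28.5 CPM in scale and 283 and 279.8 in thigh (-2.90 ± 0.23, adjusted p 3.48e-06), and dermatopontin, DPT, at 11.6 and 18.6 against 84 and 155 (-2.88 ± 0.27, adjusted p 1.41e-05). The proteoglycan ASPN stood at 29.3 and 27.7 against 107 and 184 (-2.27 ± 0.23, adjusted p 2.59e-05), and EFEMP1, a fibulin, at 34.3 and 53.1 against 177 and 258 (-2.30 ± 0.26, adjusted p 5.81e-05). COL3A1, a fibrillar collagen of loose dermis, stood at 1171 and 1028 against 2702 and 2500.1 (-1.24 ± 0.20, adjusted p 0.000687), and the basement membrane genes NID1 (-1.76), COL4A1 (-0.91) and COL4A2 (-1.26) were lower with it. PODN, a small leucine-rich proteoglycan, led the higher ones at 195 and 184 against 25.2 and 22.2 (2.95 ± 0.17, adjusted p 3.61e-07). COL12A1 stood at 2571 and 1940.2 against 966 and 659.9 (1.48 ± 0.26, adjusted p 0.00128), and COL16A1 at 793 and 767 against 415 and 251 (1.27 ± 0.22, adjusted p 0.00122). COL8A1 (1.99), COL8A2 (1.93) and the matrix protein CILP (1.46) were higher as well.

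Cartilage, tendon and bone genes were split. Of 20 cartilage genes, 4 were higher and 7 lower in scale skin (median log2 fold change -0.08), with 4 and 7 without thigh replicate 2. The cartilage collagens COL2A1, at 865 and 1004 CPM in scale and 355 and 157 in thigh (1.98 ± 0.31, adjusted p 0.000585), COL9A2 (2.28), COL11A1 (1.13) and COL9A1 (1.03) were higher. SOX5 (-1.30), SOX6 (-1.67), the parathyroid hormone receptor PTH1R (-1.93) and COMP (-1.01) were lower. The list summed to 1585 and 1681 CPM in scale and 876 and 732 in thigh. Of 14 tendon genes, 3 were higher and 3 lower (median log2 fold change 0.48), with 3 and 3 without thigh replicate 2 and 6 and 3 without thigh replicate 1. The tendon factor MKX stood at 4.22 and 5.25 against 0.94 and 0.84 (1.60 ± 0.33, adjusted p 0.004), while the matrix protein THBS4 stood at 52.8 and 43.1 against 202 and 221 (-2.13 ± 0.17, adjusted p 4.57e-06). Of 7 bone genes, 2 were higher and 1 lower (median log2 fold change -0.11), with 2 and 2 without thigh replicate 2. PHEX, a peptidase of bone cells, was higher at 43.8 and 46.6 against 20.8 and 16.7 (1.23 ± 0.26, adjusted p 0.00521). Of 16 skeletal muscle genes MYL4 alone was called (median log2 fold change -0.07), lower at 26.7 and 21.1 against 32.6 and 71.3, and not without thigh replicate 2 (adjusted p 0.267). The counts of that list, 0 and 1, became 0 and 0 without thigh replicate 2, 1 and 0 without scale replicate 1 and 0 and 0 without scale replicate 2.

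Genes of blood vessels and blood were called lower more often than higher in scale skin. Over all rows 11.7% were called higher and 12.7% lower. The shares called higher and lower were 6.90% and 37.9% for endothelial genes and 0% and 29.4% for smooth muscle and pericyte genes. For red blood cell genes they were 0% and 69.2%. Of 29 endothelial markers, 2 were higher and 11 lower (median log2 fold change -0.62), with 2 and 9 without thigh replicate 2. VE-cadherin, CDH5, stood at 133 and 87.03 CPM in scale and 348 and 514 in thigh (-1.97 ± 0.24, adjusted p 0.000112), the angiopoietin receptor TEK at 13.9 and 8.87 against 27.6 and 44.7 (-1.57 ± 0.28, adjusted p 0.00176), and the VEGF receptor KDR at 26.04 and 19.1 against 50.2 and 49.1 (-1.12 ± 0.19, adjusted p 0.0011). The lymphatic factor PROX1 was higher, at 30.2 and 19.4 against 10.6 and 5.23 (1.57 ± 0.28, adjusted p 0.00165), together with LYVE1 at 8.73 and 6.48 against 3.01 and 2.44 (1.20 ± 0.22, adjusted p 0.00217). Other genes of lymphatic vessels went the other way. FLT4 gave -1.41 without thigh replicate 2 and -0.81 without thigh replicate 1, and MMRN1 gave -1.83 and -2.29. The endothelial list summed to 748 and 537 CPM in scale and 1173 and 1305 in thigh. Of 17 smooth muscle and pericyte genes, 0 were higher and 5 lower (median log2 fold change -0.48), with 0 and 7 without thigh replicate 2 and 1 and 7 without thigh replicate 1. The smooth muscle myosin MYH11 stood at 7.89 and 9.75 against 19.8 and 26.8 (-1.30 ± 0.23, adjusted p 0.00155), and the pericyte channel subunit ABCC9 at 34.4 and 35.4 against 78.5 and 104 (-1.35 ± 0.22, adjusted p 0.000896). Red blood cell genes summed to 334 and 234 CPM in scale and 954 and 1110 in thigh, and 0 of 13 were higher and 9 lower (median log2 fold change -1.17), with 0 and 7 without thigh replicate 2 and 0 and 5 without scale replicate 2. With library weights the red blood cell counts were 0 and 1, and 1 lower gene was called in every alternative fit. The row named HBG2, a beta-type globin, stood at 222 and 129 against 654 and 775 (-2.07 ± 0.45, adjusted p 0.00545). Globin genes are near copies of each other, so reads may be split among them.

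Of 23 macrophage and leukocyte genes, 0 were higher and 2 lower (median log2 fold change -0.02), with 0 and 2 without thigh replicate 2 and 0 and 4 without thigh replicate 1. CD4 stood at 42.2 and 27.5 CPM in scale and 116 and 199.9 in thigh (-2.13 ± 0.26, adjusted p 9.11e-05), and the scavenger receptor MARCO at 3.12 and 0.76 against 13.2 and 25.6 (-2.85 ± 0.41, adjusted p 0.00036). The list as a whole overlapped between groups, at 513 and 388 CPM in scale and 487 and 736 in thigh. In the main fit 0% and 8.70% of it were called, beside 11.7% and 12.7% of all rows. Of 15 melanocyte genes, GPR143 was higher, at 4.71 and 3.85 against 0.44 and 0.35 (1.92 ± 0.22, adjusted p 5.41e-05), and RAB38 lower (-0.63). The counts of 1 and 1 (median log2 fold change -0.32) became 1 and 1 without thigh replicate 2, 2 and 0 without thigh replicate 1, 1 and 0 without scale replicate 1 and 1 and 0 without scale replicate 2. None of 4 genes of the W chromosome, which females alone carry in birds, was called (median log2 fold change -0.37), and the counts were 0 and 0 without thigh replicate 2 and 0 and 1 without thigh replicate 1.

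Counts for genes of cell state moved with thigh replicate 2. Of 45 cell cycle genes, 4 were higher and 8 lower in scale skin (median log2 fold change -0.15), but 2 and 2 without thigh replicate 2, 9 and 18 without thigh replicate 1, 3 and 2 without scale replicate 1 and 1 and 3 without scale replicate 2. They were 3 and 3 after quantile normalization and 4 and 4 after rescaling without mitochondrial rows. CCND1, which drives entry into the cycle, stood at 37.05 and 32.9 CPM in scale and 62.8 and 109.6 in thigh (-1.23 ± 0.24, adjusted p 0.00277), and the inhibitor CDKN1B at 113 and 126 against 69.2 and 52.2 (0.98 ± 0.17, adjusted p 0.00135). MKI67, a proliferation marker, stood at 469 and 449.7 against 586 and 908 and lost the call without thigh replicate 2 (adjusted p 0.256). Of 32 immediate early and stress genes, 5 were higher and 9 lower (median log2 fold change -0.14), with 4 and 9 without thigh replicate 2 and 9 and 9 without thigh replicate 1. FOS stood at 3.74 and 2.28 against 31.2 and 19.2 (-2.70 ± 0.55, adjusted p 0.00379), and EGR1 at 114 and 76.1 against 355 and 266 (-1.71 ± 0.35, adjusted p 0.00403). Higher genes of this list included CHAC1 (1.76 without thigh replicate 2 and 1.69 without thigh replicate 1) and hsp70 (1.05 and 0.60). BAG3 (0.77 and 1.09) and ATF4 (0.64 and 1.15) were higher as well. The chaperone HSP90AA1, at 665 and 1361 in scale, stood at 1809.7 and 4011 in thigh (-1.50 ± 0.35, adjusted p 0.00904), and gave -0.93 without thigh replicate 2 (adjusted p 0.0571). Of 32 hypoxia and glycolysis genes, 4 were higher and 2 lower (median log2 fold change 0.22), with 3 and 1 without thigh replicate 2, 8 and 8 without thigh replicate 1, 5 and 1 without scale replicate 1 and 2 and 1 without scale replicate 2. The called shares of the cell cycle list, 8.89% and 17.8%, and of the hypoxia list, 12.5% and 6.25%, lay near those of all rows, 11.7% and 12.7%. HIF1A stood at 630.5 and 690.1 against 383 and 271 (1.03 ± 0.18, adjusted p 0.00155) and LDHB at 7.55 and 8.17 against 32.4 and 76.1 (-2.52 ± 0.34, adjusted p 0.000201). Of the 12 mitochondrial rows, 0 were higher and 4 lower (median log2 fold change -1.06), with 0 and 1 without thigh replicate 2, 0 and 11 without thigh replicate 1, 0 and 0 without scale replicate 1 and 0 and 1 without scale replicate 2.

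The position differences were then looked for in libraries that the comparison did not hold. Scale skin at E11 was set against the mean of dorsal and wing skin at E9, 6 other libraries, in which age differs as well as site. In that contrast 779 rows (6.35%) were higher and 560 (4.56%) lower in scale skin. Embryo sex is not given in the labels. The 4 W-linked genes summed to 18.5 and 18.3 CPM in dorsal skin at E9, against 412 and 389.96 in wing skin and 339 and 192 in scale skin at E11. Of these genes 3 were called higher in scale skin at E11, and the part of sex in the contrast was not tested. The E9 scale and thigh libraries had 292 and 398 CPM, and 366 and 614. Of the 2995 rows called between scale and thigh, 575 were called in the same direction there and 75 in the opposite one. The 575 were 19.2% of the first set and 42.9% of the second, and without thigh replicate 2 the shared rows were 485. The 575 made up 23.1% of the rows called higher and 15.6% of those called lower than in thigh skin. Without scale E11 replicate 1 the second set held 661 rows and 292 were shared, and without scale E11 replicate 2 these were 719 and 362. Both contrasts came from 1 fit and share its estimate of the spread. Among the 15 largest increases 14 were called higher there too, all but HOXD12. Among the 15 largest decreases 7 were called lower: SIM1, PDE1A, IGF2, ZIC1, CACNA2D3, NELL1 and SERPIND1. The contrast takes the mean of dorsal and wing skin, so a call can rest on 1 of these sites. SALL1 stood at 63.01 and 81.3 CPM in scale at E11, below wing skin at 163 and 162. CACNA2D3 stood at 1.31 and 1.78, above wing skin at 0.9 and 1. Against wing skin alone, scale skin at E9 was called higher for 7 of the 15 increases and lower for 8 of the 15 decreases. Of these 30 genes 3 were called in the opposite direction. PRDM6 stood at 46.4 and 61.4 CPM in scale at E11, 1.63 and 1.28 in dorsal and 35.4 and 17.6 in wing skin at E9 (2.77 ± 0.29, adjusted p 3.25e-05). SIM1 stood at 4.11 and 4 in scale at E11, 37.7 and 37.5 in dorsal and 63.2 and 52.02 in wing skin (-3.23 ± 0.19, adjusted p 4.96e-07). IGF2 stood at 7.83 and 9.07 in scale at E11, 68.3 and 68.9 in dorsal and 17.3 and 22 in wing skin (-2.003 ± 0.16, adjusted p 4.07e-06). The remaining 8 decreases did not pass the threshold in the contrast with the mean of dorsal and wing skin. DCLK1, at 140.1 and 153 in thigh, stood at 22.9 and 26.5 in scale at E11, 28.6 and 31.1 in dorsal and 52.2 and 46.1 in wing skin (-0.62 ± 0.25, adjusted p 0.158).

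For the lists, the 53 position genes of the limb held 14 of 21 that were higher and 7 of 13 that were lower in both contrasts, beside the 23.1% and 15.6% over all rows. As the lists were chosen with earlier results of these data known, these shares do not test them. Of the 10 keratinocyte genes higher than in thigh skin, 1 was called higher in the other contrast, below that share over all rows, and of 9 red blood cell genes, 3 were called lower. Among endothelial genes 1 of 11 was called lower in both, and among neuron genes 3 of 11. HOXC10 went in opposite directions, since it stood at 64.8 and 90.7 CPM in scale skin at E11 against 1.49 and 1.28 in wing and 264 and 290.1 in dorsal skin (1.59 ± 0.19, adjusted p 0.000121), so that it lay above wing and below dorsal skin. EPHA3 stood at 109 and 160.03 in scale at E11, 34.9 and 46.4 in dorsal and 46.8 and 45.7 in wing skin (1.59 ± 0.19, adjusted p 9.04e-05), and ALX1 at 7.45 and 11.9 in scale at E11, 0.10 and 0.10 in dorsal and 1.37 and 2.42 in wing skin (2.56 ± 0.27, adjusted p 3.98e-05). Of the other genes named here, COL3A1, FGF10 and FOS were lower than in thigh and higher in the second contrast, and COL9A1 and LYVE1 were higher and then lower.

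**Figure D5:**
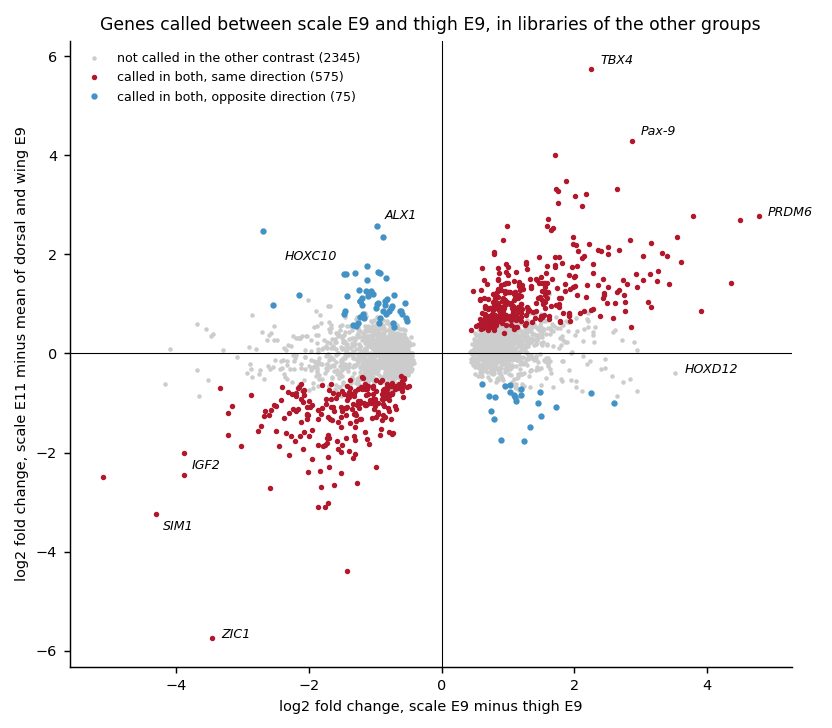
Each point is 1 of the 2995 rows called between scale E9 and thigh E9 skin, with that log2 fold change on the horizontal axis and the one from scale E11 against the mean of dorsal and wing E9 on the vertical axis. Red points (575) were called in both in the same direction, blue points (75) in opposite directions and grey points (2345) not in the second contrast.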

How the data were processed

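RNA of chicken skin was sequenced in 12 libraries, 2 for each of 6 groups. The deposited table holds 1 signal value per transcript and library: CPM, a count scaled by an effective library size, which the authors computed. The column sums differ between libraries, from 958975 to 1210600, so the scaling was not by the plain total. The submitters' processing notes name TopHat2, Partek, HTSeq, edgeR and the galGal4 genome, with no versions, roles or order. Whole reads could be recovered from the CPM steps (100% of values up to 100 CPM within 0.0055 CPM), which gave the depths of 13164610 to 20641981 reads. A value of 0 allows up to 3 reads, 0.143 to 0.221 CPM. Counting intervals and floors cover counting error only.

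Rows that reached 1 CPM in 2 or more of the 12 libraries were kept, 12277 of 12297. They were tested on log2(CPM + 1), which understates the change of low genes, with limma 3.58.1 (R 4.3.3) in 1 fit of the 6 groups with a mean-variance trend and 6 residual degrees of freedom. Benjamini-Hochberg adjustment ran over all rows and the threshold was 0.05, two-sided. Named genes are the 15 largest increases and 15 largest decreases among called rows with a symbol, 5 CPM or more on average in the group with the higher level, and no overlap between groups, all members of the position and study lists, and up to 6 called members a direction in each of the other of 34 lists. Members outside this rule were picked after their values were seen. Some members counted in the totals are not reported here by name. The members and lists were chosen with earlier results of these data known. Of the rows, 1300 have no symbol and 317 share 1 with another row, and gene names are the file's own. Alternatives changed the pseudocount, filter, scaling, libraries in the fit, variance model, test (edgeR 4.0.16 and DESeq2 1.42.0 on recovered reads), replicate block and single libraries. The limma, edgeR and DESeq2 fits were tested on simulated counts in R. Counts and values were tabulated with Python 3.11.15, numpy 2.4.6, pandas 2.3.3 and scipy 1.17.1. No genome of the files' build was used here, so no sequences or coordinates are given.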

Additional observations from a re-analysis of the deposited data

How the results depend on the processing

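No gene named as higher or lower changed sign under a setting tried, but the balance of higher and lower calls turned for some lists: WNT without thigh replicate 2, FGF, hedgehog, NOTCH and dermal matrix without thigh replicate 1, cell cycle and skeletal muscle without scale replicate 1, and hedgehog without scale replicate 2. In the fits with a library left out, the lack of overlap between groups fixed the sign in advance. Over all rows the balance also moved, toward lower calls without thigh replicate 2 and toward higher calls without thigh replicate 1. With library weights the balance turned for the posterior HOX (3 and 1), feather bud (4 and 3) and hedgehog (1 and 0) lists. That setting also cut red blood cell genes from 0 and 9 to 0 and 1, and neuron markers from 1 and 11 to 0 and 3. BMP and TGF-beta genes went from 7 and 15 to 3 and 4, and position genes of the limb from 21 and 13 to 13 and 8. The 2995 genes called between scale and thigh skin at E9 became 1275 with the 4 libraries alone and 770 with library weights, and leaving out each library gave 1382 to 5541. The higher ones (1438 in the main fit) were 578 and 367 under these 2 settings and 673 to 2859 with a library left out. The lower ones (1557) were 697, 403 and 709 to 2682. Library weights cannot single out a library within a pair, and both thigh libraries had the same weight, 0.237. The contrast of scale E11 with dorsal and wing skin at E9 called 1339 rows in the main fit, 2034 with its own libraries alone and 661 to 1054 with a library left out. The 575 rows shared in direction became 322 with library weights and 292 to 624 with a library left out. Other settings stayed within 1.5 times of these counts: edgeR on recovered reads called 2869 rows and DESeq2 3292. A fit with replicate number as a replicate block called 3275, but the numbers are not given as pairs: deviations of same-numbered libraries correlated at 0.0592 between thigh and scale E9 and at -0.1005 to 0.2348 over all pairs of groups. Where a count moved, the cause was not tested. Depth limits genes near 0 CPM, such as HOXD13, CRNN and EVX2, to wide ratios or bounds.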
